A study of Mus musculus with 9 samples.

Results

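Cell cycle and DNA replication genes were followed in mouse fibroblasts that were given the receptor PPARg2, with or without its A/B-domain, together with its agonist. The genes were taken from a list of 42 cyclins, cyclin-dependent kinases, kinase inhibitors, E2F and pocket proteins, replication genes and mitosis genes, by their symbol in the platform annotation. Where a gene had several probe sets, the brightest on average over the 9 arrays stood for it. By this rule 41 of the 42 genes were measured, of 18193 genes in all, and Ccnb1 was not analysed here. The rule used the mean level over all arrays and no difference between groups.

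The cells were NIH-CAR cells, 1 clone of the NIH-3T3 mouse fibroblast line that stably expresses the coxsackie-adenovirus receptor variant CARΔ1, through which adenoviral vectors enter. In the first group (PPARgCDE) the adenovirus encoded HA-tagged PPARg without its A/B-domain, the N-terminal part of the receptor, and the cells then received 1 µM rosiglitazone, a PPARg agonist also named BRL49653. In the second group (PPARg2) it encoded HA-tagged full-length PPARg2, again with 1 µM rosiglitazone. In the third group (AdEmpty) the adenovirus carried an empty vector and the cells received only the vehicle DMSO. All groups were at passage 12, grew in medium with 10% calf serum, met the virus at 80% confluency and kept it for 2 h. Each group had 3 arrays, numbered 1 to 3 in the titles. The samples came from individual experiments per the design text, which does not tie the numbers to them, so p-values measure the spread between these arrays. Receptor and agonist differed together from the empty vector, so neither can be read alone, and both comparisons with the empty vector share its 3 arrays.

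The cell cycle is driven by cyclins, which bind and activate cyclin-dependent kinases in a fixed order. D-type cyclins with Cdk4 or Cdk6 act in G1 and, with cyclin E and Cdk2, phosphorylate the pocket proteins, which frees E2F factors to switch on replication genes. Cyclin A and B with Cdk1 then drive mitosis, whose genes peak in G2 under Foxm1 and related factors. In preadipocyte cultures PPARg is known to be linked to withdrawal from the cell cycle during adipocyte differentiation.

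Levels are log2 values as deposited, and a difference of 1 log2 unit is a doubling. A level is not compared between genes, since probe sets differ in brightness. Differences are given with their standard error (SE) or 95% interval from limma. Unless a replicate block is named, the fit ignored the replicate numbers, so arrays of equal number were not paired. A gene was called when its Benjamini-Hochberg adjusted p over all genes was under 0.05. Pparg, which encodes the receptor, read 10.74, 12.01 and 11.26 in PPARgCDE cells and at 10.70, 12.22 and 10.84 in PPARg2 cells, against 7.01, 6.99 and 7.17 in AdEmpty cells. All 6 arrays with a receptor vector were above all 3 without one. Of the 10 fibroblast markers measured, Vim averaged 14.13, 14.16 and 14.08 and Col1a1 13.56, 13.51 and 13.49 in PPARgCDE, PPARg2 and AdEmpty cells. Leukocyte, epithelial, endothelial and muscle markers averaged between 6.16 and 7.11 on every array. The highest of them were Csf1r, with group means of 9.72, 9.90 and 9.94, and Epcam, with 8.29, 8.49 and 8.06. Of 6 adipocyte markers, Adipoq and Lep stayed below 6 on all arrays, while Fabp4 averaged 12.36, 13.42 and 5.82 in PPARgCDE, PPARg2 and AdEmpty cells. In the same order Lpl averaged 9.93, 11.25 and 7.39, Cidec 5.70, 7.66 and 5.15, and Retn 7.05, 7.24 and 7.13.

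Promoter windows of 5 members are shown, because Cdk1, Ccnb2, Aurka and Bub1 were high and low together across the arrays, as described further on, and Rrm2 had the largest difference between groups. Each runs from 250 bases before to 50 after the annotated start, from RefSeq on GRCm38.p6, 5′ to 3′ on the strand of the gene. Capitals mark 3 motifs, searched on both strands and counted also where they share letters. They are the E2F-type motif TTTNNCGC, the CCAAT box, and TTTGAA, a form of the CHR element of late cell cycle genes. Cdk1 lies at chr10:69352863-69353162 on the minus strand and Ccnb2 at chr9:70421505-70421804 on the minus strand. Aurka lies at chr2:172370521-172370820 on the minus strand, Bub1 at chr2:127831810-127832109 on the minus strand and Rrm2 at chr12:24708004-24708303 on the plus strand.
Cdk1: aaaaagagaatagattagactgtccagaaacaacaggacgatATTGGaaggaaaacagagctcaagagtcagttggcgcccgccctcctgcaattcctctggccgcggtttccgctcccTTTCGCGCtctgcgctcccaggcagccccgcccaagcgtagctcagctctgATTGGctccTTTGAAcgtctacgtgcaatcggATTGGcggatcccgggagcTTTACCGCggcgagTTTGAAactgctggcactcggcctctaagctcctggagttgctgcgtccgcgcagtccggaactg
Ccnb2: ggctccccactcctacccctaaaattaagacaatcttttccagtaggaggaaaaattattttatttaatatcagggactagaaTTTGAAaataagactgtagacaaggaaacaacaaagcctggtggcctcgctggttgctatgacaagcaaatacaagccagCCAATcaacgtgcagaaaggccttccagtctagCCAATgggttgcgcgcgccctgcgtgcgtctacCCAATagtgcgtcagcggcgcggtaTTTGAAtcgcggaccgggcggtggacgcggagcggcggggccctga
Aurka: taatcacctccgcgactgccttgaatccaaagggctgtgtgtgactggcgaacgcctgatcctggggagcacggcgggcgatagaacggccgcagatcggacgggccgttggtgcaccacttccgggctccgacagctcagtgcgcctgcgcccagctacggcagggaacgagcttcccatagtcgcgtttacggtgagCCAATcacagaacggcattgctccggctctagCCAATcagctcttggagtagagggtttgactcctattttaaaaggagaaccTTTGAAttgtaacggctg
Bub1: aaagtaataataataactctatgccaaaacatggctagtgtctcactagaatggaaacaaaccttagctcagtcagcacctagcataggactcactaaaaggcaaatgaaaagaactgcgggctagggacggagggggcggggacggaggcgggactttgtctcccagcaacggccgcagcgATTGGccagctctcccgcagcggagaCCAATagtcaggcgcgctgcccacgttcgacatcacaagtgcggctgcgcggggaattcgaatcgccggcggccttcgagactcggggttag
Rrm2: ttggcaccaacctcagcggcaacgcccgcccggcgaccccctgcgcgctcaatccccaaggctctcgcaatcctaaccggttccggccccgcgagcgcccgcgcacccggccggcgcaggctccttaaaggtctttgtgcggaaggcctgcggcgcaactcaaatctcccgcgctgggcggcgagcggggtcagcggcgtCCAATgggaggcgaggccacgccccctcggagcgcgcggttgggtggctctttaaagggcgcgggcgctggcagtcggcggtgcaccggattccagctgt
The Cdk1 window held 2 E2F-type motifs, 3 CCAAT boxes and 2 CHR-type motifs. The Ccnb2 window held 3 CCAAT boxes and 2 CHR-type motifs, the Aurka window 2 and 1, the Bub1 window 2 CCAAT boxes and the Rrm2 window 1. RefSeq windows were found for 31 measured members, 35 windows in all. The E2F-type motif was in 34.3% of these windows, against 5.17% of all 32851 windows of the same length. The CCAAT box was in 68.6%, against 37.4% of all windows, and the CHR-type motif in 28.6%, against 17.9%. The DR1 element, the known binding motif of PPARg with its partner RXR, was searched as 2 perfect half-sites with 1 base between them and was in 0 of the 35 windows, against 0.0396% of all windows. At so low a share a count of 0 in 35 windows was to be expected, so it tells nothing of PPARg sites near these genes. A match is a description of the letters and not of binding. No window was used for Ccnd1, Ccnd2, Ccne2, Ccna2, Foxm1, Aurkb, Mcm4, Cdc25c, Cdkn1c and Rb1.

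In the main fit, which had no block for replicate number, no member was called in any of the 3 comparisons. A second fit took the replicate number as a block, which counts arrays of equal number as pairs. It called Rrm2 higher (adjusted p = 0.0142) and Ccnd1 lower (adjusted p = 0.0258) in PPARg2 against AdEmpty cells, where 3.63% of all genes were called. In this comparison the second fit gave 8 members with an unadjusted p under 0.05, where 14.2% of all genes passed. The arrays of these groups did not meet the rule for pairs given with the processing. Each group met it with PPARgCDE, so the miss does not settle whether these arrays pair. Without the block 0 of 41 members were called by limma in PPARg2 against AdEmpty cells, where 0.654% of all genes were called. At an unadjusted p under 0.05 there were 2 members, Rrm2 higher and Cdkn1b lower, where 6.19% of all genes passed. In 1 member, Cdc20, the groups did not overlap, as in 9.38% of all genes. The members' median difference was -0.09, against 0.00 over all genes, and single differences ran from -0.54 to 0.71. Of the 41 differences 13 were positive and 28 negative.

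In PPARgCDE against AdEmpty cells 0 of 41 members were called, where 0.17% of all genes were called. With the replicate block 0 members and 0.912% of all genes were called. At an unadjusted p under 0.05 there were 2 members, Rrm2 and Tyms, both higher, where 3.79% of all genes passed. Tyms was the 1 member whose groups did not overlap, as in 7.89% of all genes. The median difference was -0.03, against -0.03 over all genes, with a range from -0.36 to 0.57, and 16 differences were positive and 25 negative.

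In PPARgCDE against PPARg2 cells 0 of 41 members were called, and so were 0% of all genes, with or without the replicate block. At an unadjusted p under 0.05 there were 0 members, where 1.52% of all genes passed. The groups did not overlap in 2 members, Rbl1 higher and Cdc20 lower, as in 5.17% of all genes. The median was 0.01, against -0.01 over all genes, with a range from -0.35 to 0.29. Without the block, the shares of members called or with an unadjusted p under 0.05 lay near those of all genes. The share without overlap was smaller than over all genes in both comparisons with AdEmpty. In each of the 3 comparisons the members' median changed sign when single arrays were left out of the fit without the block. Such a fit can leave a replicate number in only 1 of the groups compared. The sign change therefore does not show how stable the group difference was. In the fit without the block, the 95% interval of the difference lay within 1 log2 unit of zero for most members. These were 36 members in PPARg2 against AdEmpty, 38 in PPARgCDE against AdEmpty and 41 in PPARgCDE against PPARg2. The median half-width of the interval was 0.40. A miss of the threshold does not show that the levels were equal. In such samples of many cells, fewer cells in a phase and less RNA per cell cannot be told apart.

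**Figure D1:**
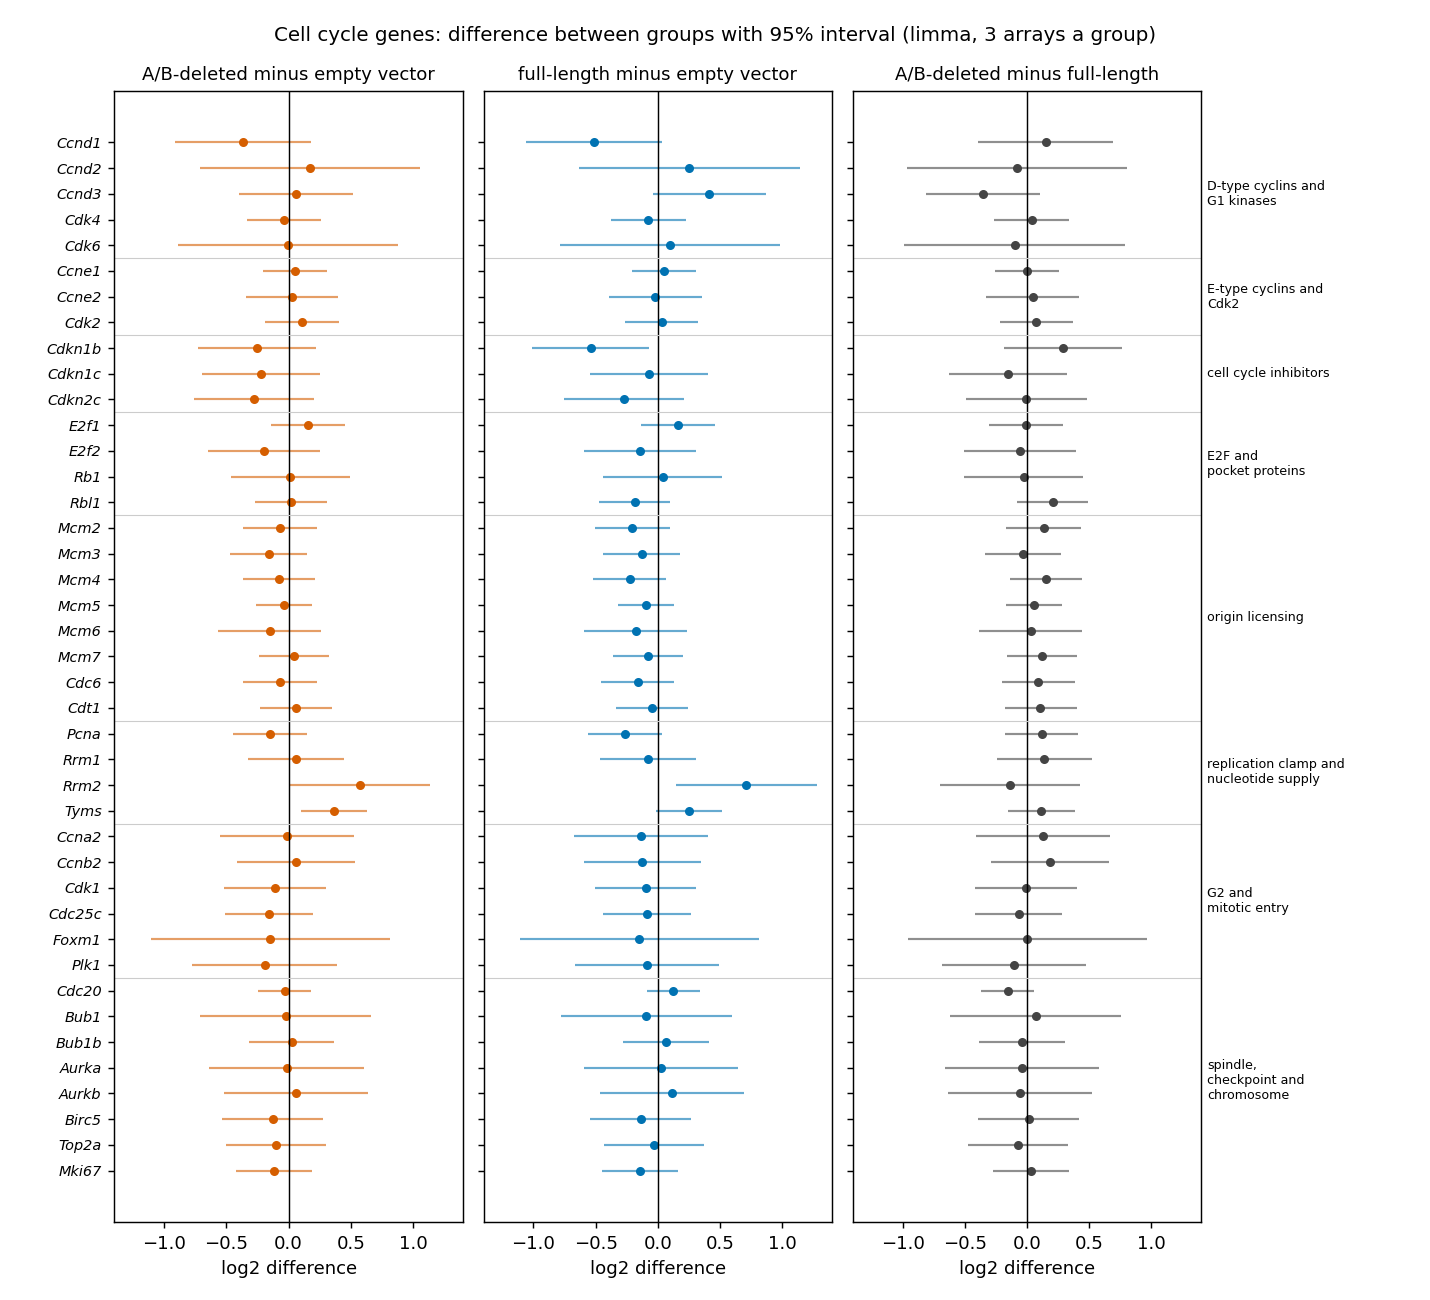
Log2 difference between groups (x axis) of the 41 measured members (y axis, by role), with 95% intervals from limma, for PPARgCDE minus AdEmpty (left), PPARg2 minus AdEmpty (middle) and PPARgCDE minus PPARg2 (right). Most points lie near zero; Rrm2 (0.57 and 0.71) is the farthest to the right in both comparisons with AdEmpty, and Ccnd1 (-0.36 and -0.51) lies to the left in both.

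Among the D-type cyclins and their kinases, Ccnd1 was lower on average with both receptors and Ccnd3 was higher with the full-length receptor. Without the replicate block 0 of these 5 genes were called in any comparison. Ccnd1, cyclin D1, which couples growth factor signals to G1 progress, was at 11.67, 11.45 and 12.18 in PPARgCDE cells and at 11.56, 11.30 and 11.99 in PPARg2 cells, against 11.94, 11.96 and 12.49 in AdEmpty cells. Within each number both receptor arrays were below the AdEmpty array, while arrays numbered 3 were the highest in each group and the groups overlapped. The difference from AdEmpty was -0.51 in PPARg2 cells (SE 0.24, 0.70-fold, adjusted p = 0.872) and -0.36 in PPARgCDE cells (SE 0.24, 0.78-fold, adjusted p = 1.0). All 3 probe sets of Ccnd1 had this sign, from -0.67 to -0.48 and from -0.44 to -0.24. Between PPARgCDE and PPARg2 cells Ccnd1 differed by 0.15 (SE 0.24). With the replicate block Ccnd1 was called in PPARg2 against AdEmpty cells (SE 0.083, adjusted p = 0.0258). It was not called in PPARgCDE against AdEmpty cells (SE 0.083, adjusted p = 0.149).

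Ccnd3, cyclin D3, a D-type cyclin known to act in adipocyte differentiation, was at 9.90, 10.10 and 10.54 in PPARgCDE cells and at 10.46, 10.44 and 10.70 in PPARg2 cells, against 9.86, 10.03 and 10.48 in AdEmpty cells. The PPARg2 array was the highest of its number each time, and the groups overlapped. The difference was 0.41 in PPARg2 against AdEmpty cells (SE 0.20, 1.33-fold, adjusted p = 0.91), 0.06 in PPARgCDE against AdEmpty cells (SE 0.20) and -0.35 in PPARgCDE against PPARg2 cells (SE 0.20, 0.78-fold, adjusted p = 1.0). The last was the most negative of any member between the receptors. Over its 3 probe sets the difference of PPARg2 from AdEmpty ran from 0.11 to 0.41.

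Ccnd2, cyclin D2, was at 11.90, 11.78 and 10.92 in PPARgCDE cells and at 11.95, 12.01 and 10.88 in PPARg2 cells, against 11.77, 11.62 and 10.69 in AdEmpty cells. In every group array 3 was about 1 log2 unit below the others, a far larger gap than between groups. The difference from AdEmpty was 0.25 in PPARg2 cells (SE 0.39, 1.19-fold, adjusted p = 1.0) and 0.17 in PPARgCDE cells (SE 0.39, 1.13-fold, adjusted p = 1.0). The 7 probe sets of Ccnd2 did not share a sign in PPARg2 against AdEmpty cells, from -0.318 to 0.253. They ran from 0.039 to 0.195 in PPARgCDE against AdEmpty cells and from -0.152 to 0.513 between the receptors. Cdk4 and Cdk6, the kinases of the D-type cyclins, differed from AdEmpty by -0.08 and 0.10 in PPARg2 cells and by -0.04 and 0.00 in PPARgCDE cells.

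The E-type cyclins and Cdk2, which act at the entry to S phase, differed little between groups. Ccne1, cyclin E1, was at 9.88, 9.90 and 10.15 in PPARgCDE cells and at 9.88, 10.03 and 10.01 in PPARg2 cells, against 9.92, 9.87 and 9.98 in AdEmpty cells. The groups overlapped, with differences from AdEmpty of 0.05 in PPARg2 cells and 0.05 in PPARgCDE cells (SE 0.11 each, 1.04-fold each, adjusted p = 1.0) and of 0.00 between the receptors. Over this role of 3 genes differences ran from -0.02 to 0.05 in PPARg2 against AdEmpty cells and from 0.03 to 0.11 in PPARgCDE against AdEmpty cells, and 0 were called.

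All 3 kinase inhibitors among the members had negative differences from AdEmpty in both receptor groups, and 0 were called. Cdkn1b encodes p27, which restrains cyclin E and Cdk2. It was at 9.20, 8.81 and 9.04 in PPARgCDE cells and at 9.17, 8.53 and 8.48 in PPARg2 cells, against 9.41, 8.97 and 9.42 in AdEmpty cells. The AdEmpty array was the highest of its number each time, yet PPARg2 array 1 lay above AdEmpty array 2. The difference was -0.54 in PPARg2 against AdEmpty cells (SE 0.21, 0.69-fold, adjusted p = 0.637), -0.25 in PPARgCDE against AdEmpty cells (SE 0.21, 0.84-fold, adjusted p = 1.0) and 0.29 in PPARgCDE against PPARg2 cells (SE 0.21, 1.22-fold, adjusted p = 1.0). Its second probe set, at a mean of 5.61, gave -0.03, -0.33 and -0.30 for these, so the probe sets did not share a sign between the receptors.

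Cdkn2c encodes p18, which binds Cdk4 and Cdk6 and is known to be induced during adipocyte differentiation. It was at 10.38, 9.83 and 10.26 in PPARgCDE cells and at 10.52, 9.80 and 10.17 in PPARg2 cells, against 10.67, 10.19 and 10.45 in AdEmpty cells. The AdEmpty array was again the highest of each number, with overlapping groups. The difference was -0.27 in PPARg2 against AdEmpty cells (SE 0.22, 0.83-fold, adjusted p = 1.0) and -0.28 in PPARgCDE against AdEmpty cells (SE 0.22, 0.82-fold, adjusted p = 1.0). Cdkn1c, which encodes the inhibitor p57, was at 6.26, 6.21 and 6.08 in PPARgCDE cells and at 6.03, 6.22 and 6.75 in PPARg2 cells, against 6.76, 6.34 and 6.11 in AdEmpty cells. These values lay below the lowest array median of 6.68 on all but 2 arrays. Cdkn1c differed by -0.15 between PPARgCDE and PPARg2 cells (SE 0.21, 0.90-fold, adjusted p = 1.0).

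**Figure D2:**
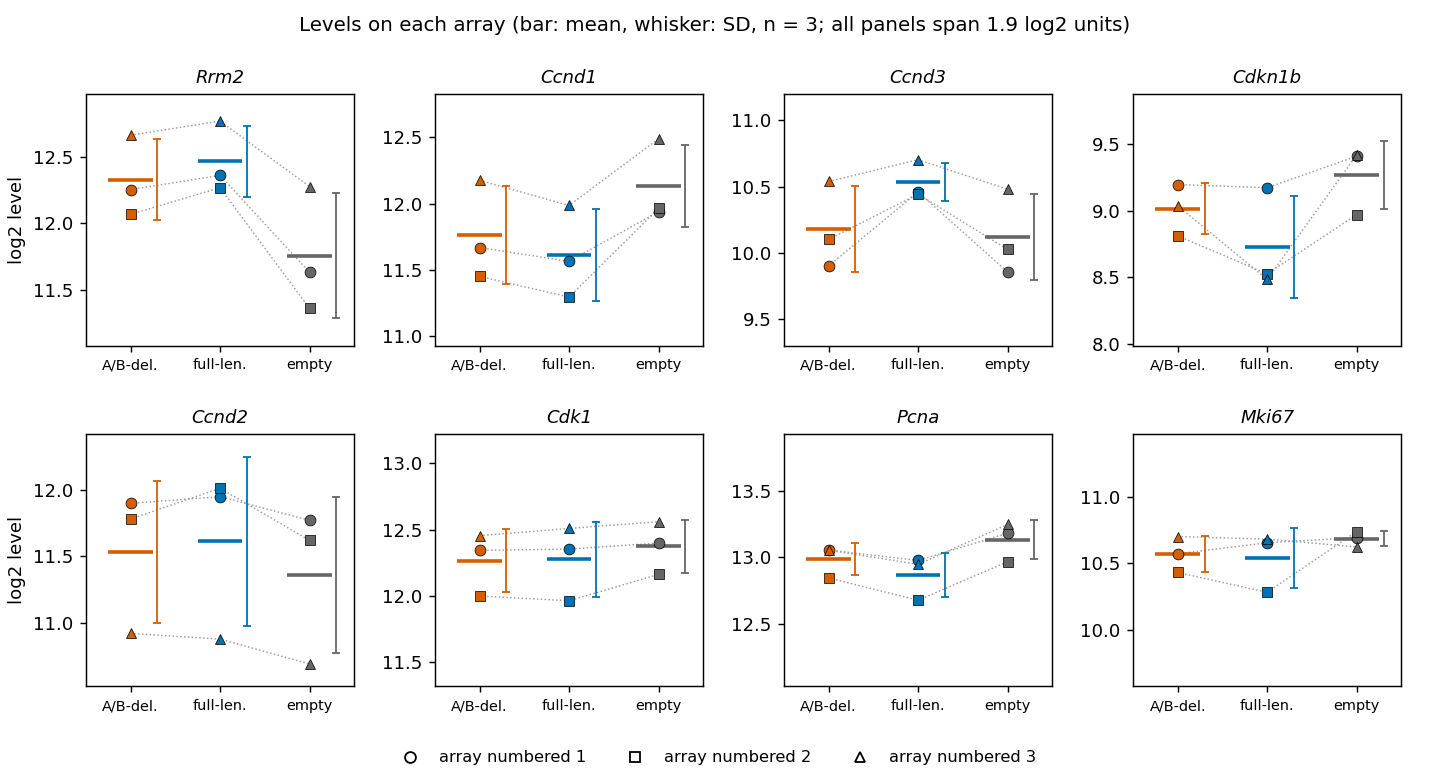
Log2 level (y axis) of 8 members on each array, with PPARgCDE, PPARg2 and AdEmpty cells from left to right; symbols mark replicate numbers, dotted lines join arrays of equal number, bars are means and whiskers SD over 3 arrays. For Rrm2 every AdEmpty array is the lowest of its number, and for Ccnd2 the 3 arrays numbered 3 lie together near 10.7 to 10.9.

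The E2F factors and pocket proteins showed no called member. E2f1, an activating E2F that drives S phase genes, differed from AdEmpty by 0.16 in PPARg2 cells and 0.16 in PPARgCDE cells (SE 0.13 each). Its other 2 probe sets were at -0.15 and -0.13 in PPARg2 cells and -0.11 and -0.12 in PPARgCDE cells, the opposite direction. Rbl1 encodes p107, a pocket protein that binds repressive E2F factors. It was at 8.90, 8.82 and 8.94 in PPARgCDE cells, 8.81, 8.67 and 8.56 in PPARg2 cells and 8.84, 8.69 and 9.07 in AdEmpty cells. The 3 PPARgCDE arrays lay above the 3 PPARg2 arrays with a difference of 0.21 (SE 0.13, 1.15-fold, adjusted p = 1.0). The 4 probe sets of Rbl1 ran from -0.27 to 0.21 in that comparison. E2f2, another activating E2F, and Rb1, the retinoblastoma gene, differed by between -0.20 and 0.04 in the 3 comparisons.

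The origin licensing genes had small negative differences in PPARg2 cells. Mcm2 to Mcm7 encode the 6 subunits of the replicative helicase, which Cdc6 and Cdt1 load onto origins. In PPARg2 against AdEmpty cells all 8 differences were negative, from -0.23 for Mcm4 to -0.05 for Cdt1 with a median of -0.15, and 0 of 8 were called. In PPARgCDE against AdEmpty cells 6 were negative and 2 positive with a median of -0.07, and in PPARgCDE against PPARg2 cells 7 were positive and 1 negative with a median of 0.10. Mcm2 was at 11.16, 11.05 and 11.36 in PPARgCDE cells and at 11.18, 10.93 and 11.06 in PPARg2 cells, against 11.26, 11.10 and 11.43 in AdEmpty cells. Every AdEmpty array was the highest of its number, and the groups overlapped. The difference was -0.20 in PPARg2 against AdEmpty cells (SE 0.13, 0.87-fold, adjusted p = 1.0) and -0.07 in PPARgCDE against AdEmpty cells (SE 0.13, 0.95-fold, adjusted p = 1.0). Mcm5 varied least among AdEmpty arrays, at 11.77 on 2 of them and 11.78 on the third, and differed by -0.09 in PPARg2 cells and -0.04 in PPARgCDE cells.

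Among genes of the replication clamp and nucleotide supply, Rrm2 and Tyms were the members with the largest positive differences from AdEmpty in PPARgCDE cells. Without the replicate block 0 of 4 were called. Rrm2 encodes the small subunit of ribonucleotide reductase, which makes deoxynucleotides. Rrm2 was at 12.25, 12.07 and 12.66 in PPARgCDE cells and at 12.36, 12.27 and 12.77 in PPARg2 cells, against 11.63, 11.36 and 12.28 in AdEmpty cells. Each AdEmpty array was the lowest of its number, but AdEmpty array 3 lay above array 2 of both receptor groups. The difference was 0.71 in PPARg2 against AdEmpty cells (SE 0.25, 1.64-fold, adjusted p = 0.517) and 0.57 in PPARgCDE against AdEmpty cells (SE 0.25, 1.49-fold, adjusted p = 1.0). Within numbers 1, 2 and 3 it was 0.73, 0.91 and 0.49 in PPARg2 cells and 0.62, 0.71 and 0.39 in PPARgCDE cells. The 3 probe sets of Rrm2 gave 0.71 to 0.80 and 0.53 to 0.67. With the replicate block Rrm2 was called in PPARg2 against AdEmpty cells (SE 0.096, adjusted p = 0.0142). It was not called in PPARgCDE against AdEmpty cells (SE 0.096, adjusted p = 0.0685). Its partner Rrm1, the large subunit, differed by -0.08 in PPARg2 cells and 0.06 in PPARgCDE cells (SE 0.17 each).

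Tyms, thymidylate synthase, was at 7.53, 7.47 and 7.44 in PPARgCDE cells and at 7.25, 7.33 and 7.52 in PPARg2 cells, against 7.26, 6.98 and 7.10 in AdEmpty cells. All PPARgCDE arrays were above all AdEmpty arrays, with a difference of 0.37 (SE 0.12, 1.29-fold, adjusted p = 0.868), and the difference in PPARg2 cells was 0.25 (SE 0.12, 1.19-fold, adjusted p = 0.883). The 4 probe sets of Tyms disagreed, from -0.18 to 0.37 in PPARgCDE against AdEmpty cells. Pcna encodes the sliding clamp of the replication fork. It was at 13.05, 12.84 and 13.05 in PPARgCDE cells and at 12.98, 12.68 and 12.95 in PPARg2 cells, against 13.18, 12.97 and 13.25 in AdEmpty cells. The order AdEmpty, PPARgCDE, PPARg2 held within each number from high to low. The difference was -0.27 in PPARg2 against AdEmpty cells (SE 0.13, 0.83-fold, adjusted p = 0.921) and -0.15 in PPARgCDE against AdEmpty cells (SE 0.13, 0.90-fold, adjusted p = 1.0).

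The 14 mitosis members had small differences between groups and 0 were called. Their differences ran from -0.15 to 0.13 in PPARg2 against AdEmpty cells, from -0.19 to 0.06 in PPARgCDE against AdEmpty cells and from -0.16 to 0.18 in PPARgCDE against PPARg2 cells. Cdk1, the kinase of mitotic entry, was at 12.34, 12.00 and 12.45 in PPARgCDE cells and at 12.35, 11.96 and 12.51 in PPARg2 cells, against 12.40, 12.16 and 12.56 in AdEmpty cells. The groups overlapped, with differences of -0.10 in PPARg2 cells and -0.11 in PPARgCDE cells (SE 0.18 each, 0.93-fold each, adjusted p = 1.0). Ccnb2, cyclin B2, was at 8.44, 8.24 and 8.81 in PPARgCDE cells, 8.12, 8.19 and 8.62 in PPARg2 cells and 8.34, 8.18 and 8.78 in AdEmpty cells. It differed by 0.18 between PPARgCDE and PPARg2 cells (SE 0.21, 1.14-fold, adjusted p = 1.0), with overlapping groups. Ccna2, cyclin A2, Cdc25c, the phosphatase that activates Cdk1, Foxm1 and Plk1, a kinase of mitotic entry, had differences of -0.15 to -0.09 in PPARg2 cells and of -0.19 to -0.01 in PPARgCDE cells.

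Cdc20, the activator of the anaphase-promoting complex, was at 12.08, 12.08 and 12.17 in PPARgCDE cells and at 12.27, 12.30 and 12.23 in PPARg2 cells, against 12.18, 12.13 and 12.12 in AdEmpty cells. The PPARg2 arrays lay above those of both other groups, by 0.13 against AdEmpty (SE 0.09, 1.09-fold, adjusted p = 1.0). PPARgCDE lay below PPARg2 by -0.16 (SE 0.09, 0.90-fold, adjusted p = 1.0). Its 3 probe sets shared these signs, with 0.13 to 0.22 and -0.16 to -0.12. Top2a, the topoisomerase that untangles chromosomes, was at 11.85, 11.58 and 12.12 in PPARgCDE cells and at 11.88, 11.70 and 12.20 in PPARg2 cells, against 11.88, 11.85 and 12.14 in AdEmpty cells. Its differences from AdEmpty were -0.03 and -0.10 in PPARg2 and PPARgCDE cells (SE 0.18 each, 0.98-fold and 0.93-fold, adjusted p = 1.0), and its 3 probe sets ran from -0.03 to 0.28 in PPARg2 cells.

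Mki67 encodes Ki-67, a marker of proliferating cells. It was at 10.57, 10.43 and 10.70 in PPARgCDE cells and at 10.65, 10.28 and 10.68 in PPARg2 cells, against 10.69, 10.74 and 10.62 in AdEmpty cells. The SD was 0.14 in PPARgCDE, 0.22 in PPARg2 and 0.06 in AdEmpty cells, and the groups overlapped. The difference was -0.15 in PPARg2 against AdEmpty cells (SE 0.14, 0.90-fold, adjusted p = 1.0), with a 95% interval from -0.45 to 0.16, and -0.12 in PPARgCDE against AdEmpty cells (SE 0.14, 0.92-fold, adjusted p = 1.0), with an interval from -0.42 to 0.19. The checkpoint kinases Bub1 and Bub1b, the mitotic kinases Aurka and Aurkb and Birc5 (survivin), a partner of Aurkb, had differences between -0.14 and 0.12 in both comparisons with AdEmpty.

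The members' levels followed the replicate number of the array more than the group. The mean level of the 41 members on arrays 1, 2 and 3 was 10.09, 9.92 and 10.29 in PPARgCDE cells, 10.10, 9.93 and 10.21 in PPARg2 cells and 10.09, 10.00 and 10.31 in AdEmpty cells. Array 2 was the lowest and array 3 the highest each time, whereas the means over all genes stayed between 7.67 and 7.80. For 18 of 41 members array 3 was the highest in every group, where this held for 14.9% of all genes. For 22 of 41 members array 2 was the lowest in every group, against 8.48% of all genes. The sum of squares of each gene over the 9 arrays was divided into the shares that went with group, with replicate number and with neither. The number held more than the group in 33 of 41 members (80.5%), against 65.5% of all genes. The median shares of the members were 13.1% for group and 60.4% for number, against 14.1% and 32.3% over all genes. These are descriptions without a test, since the members share arrays.

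**Figure D3:**
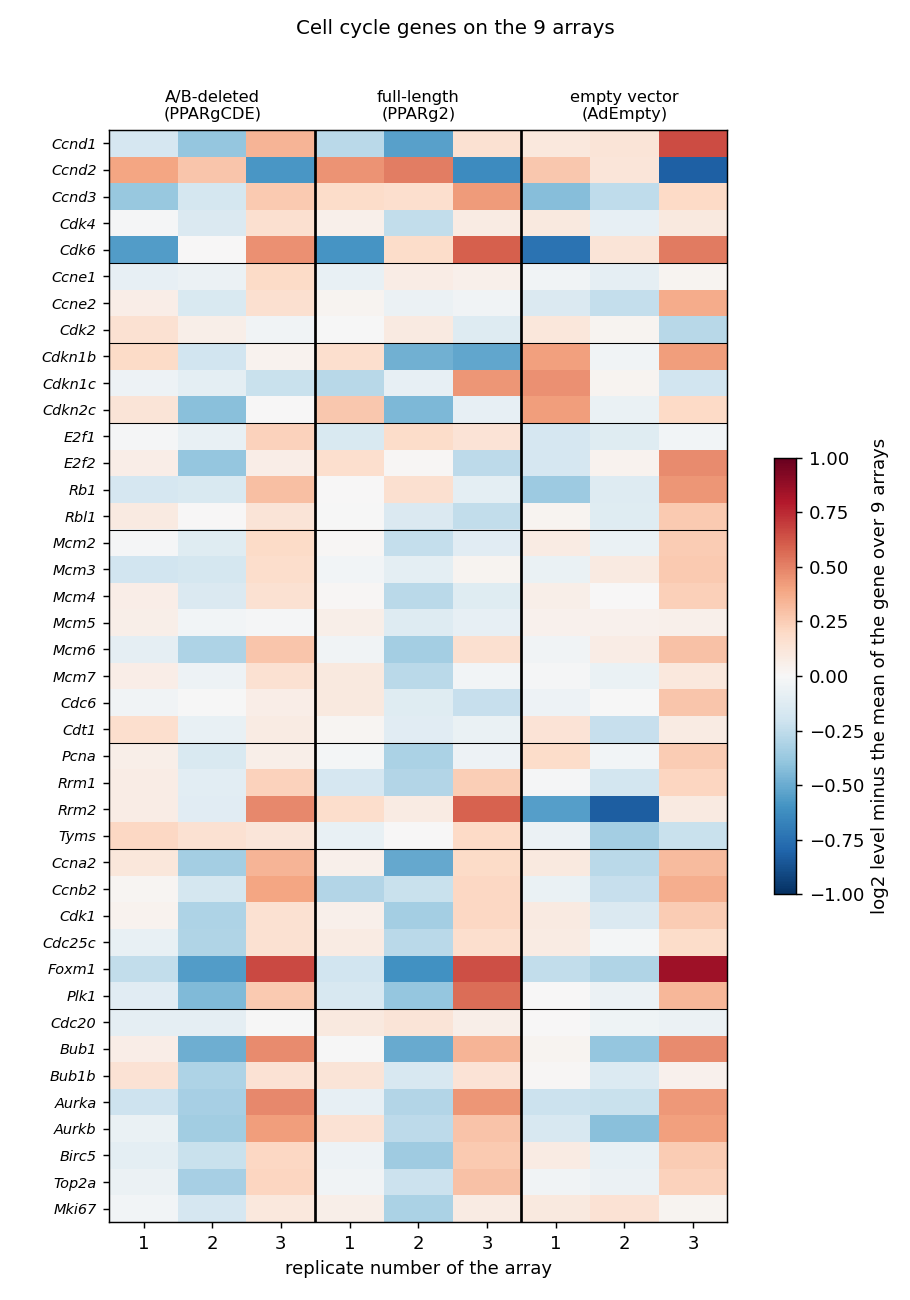
Log2 level minus the mean of the gene over the 9 arrays (colour, red above and blue below), for the 41 measured members (rows, by role) on the arrays numbered 1 to 3 (columns) of PPARgCDE, PPARg2 and AdEmpty cells. From the row of Ccna2 down, arrays 2 are mostly blue and arrays 3 mostly red in all 3 groups, and the row of Ccnd2 runs the other way.

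The pattern was clearest in the mitosis genes, where 11 of 14 were highest on array 3 of every group and 11 of 14 were lowest on array 2 of every group. Their median shares were 5.33% for group and 87.3% for number. All 6 genes of G2 and mitotic entry were highest on array 3 in every group. Foxm1, which encodes the transcription factor of G2 and mitosis genes, was at 8.29, 7.98 and 9.20 in PPARgCDE cells, 8.34, 7.93 and 9.18 in PPARg2 cells and 8.29, 8.24 and 9.38 in AdEmpty cells. Array 3 stood above the mean of the other two by 1.06 in PPARgCDE cells, 1.05 in PPARg2 cells and 1.12 in AdEmpty cells. Bub1, the spindle checkpoint kinase, was at 10.11, 9.56 and 10.52 in PPARgCDE cells, 10.05, 9.54 and 10.39 in PPARg2 cells and 10.08, 9.66 and 10.52 in AdEmpty cells. The number held 98.2% of its sum of squares and the group 1.16%. Aurka, the kinase of the spindle poles, was at 9.78, 9.65 and 10.46 in PPARgCDE cells, 9.90, 9.69 and 10.42 in PPARg2 cells and 9.77, 9.76 and 10.42 in AdEmpty cells. In Foxm1 and Aurka the AdEmpty arrays 1 and 2 lay close together, and array 3 stood apart from both in every group. Among mitosis genes Cdc20 was the one with more for group, 81.0% against 0.12% for number.

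**Figure D4:**
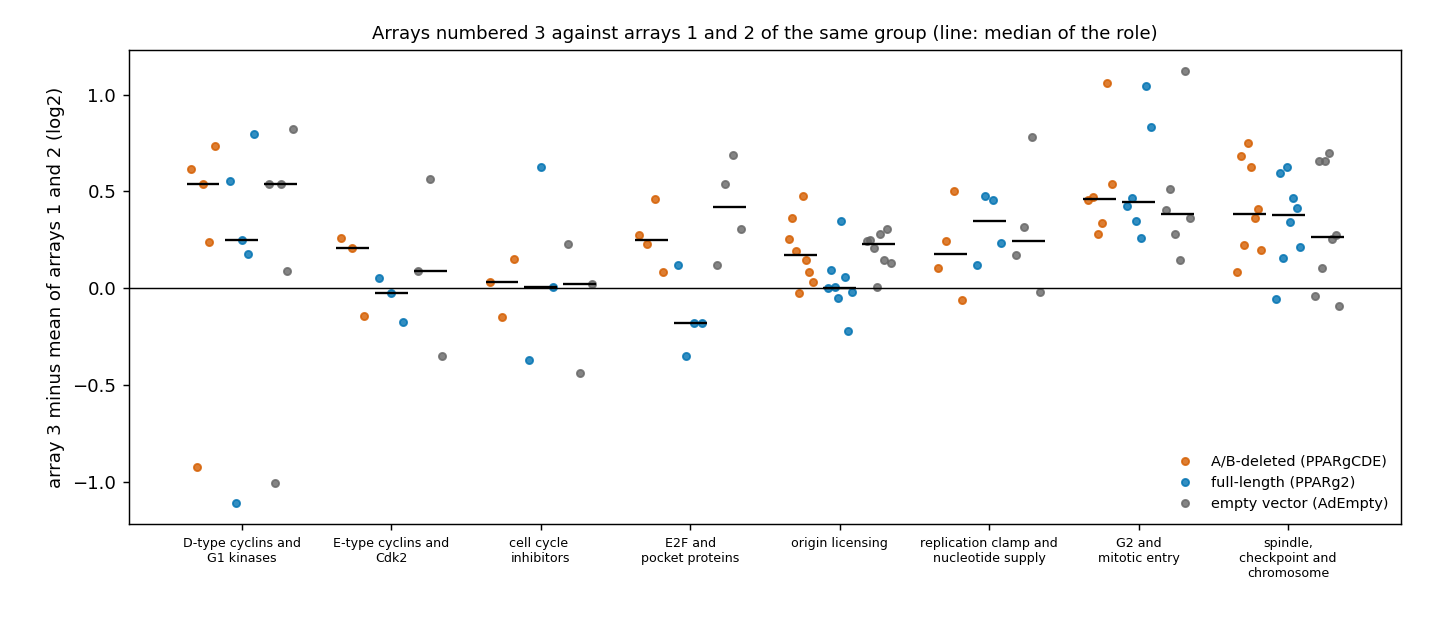
Array 3 minus the mean of arrays 1 and 2 of the same group (y axis, log2), 1 point per member, by role (x axis) and for PPARgCDE, PPARg2 and AdEmpty cells from left to right within a role; black lines are medians. The medians of G2 and mitotic entry are 0.46, 0.45 and 0.38, and the points near -1 are Ccnd2.

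The replication genes had a lower median share for number than the mitosis genes. Of the 12 replication members 4 were highest on array 3 in every group, Mcm3, Mcm6, Rrm1 and Rrm2, and 8 were lowest on array 2 in every group. Their median shares were 28.1% for group and 51.6% for number. The kinase inhibitors had 21.8% and 38.6%. In 8 members the group held more than the number: Tyms (71.4% for group) and Cdc20 the most, then Rrm2, Cdkn1b, Rbl1, Mcm5, Cdc6 and Cdkn1c. G1 genes differed among themselves. Ccnd2 and Cdk2 were the 2 members lowest on array 3 of every group, and all 7 probe sets of Ccnd2 were lowest there. Cdk6 was at 8.89, 9.45 and 9.91 in PPARgCDE cells, 8.86, 9.64 and 10.05 in PPARg2 cells and 8.71, 9.58 and 9.97 in AdEmpty cells, so that array 1 was the lowest and array 3 the highest in every group.

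**Figure D5:**
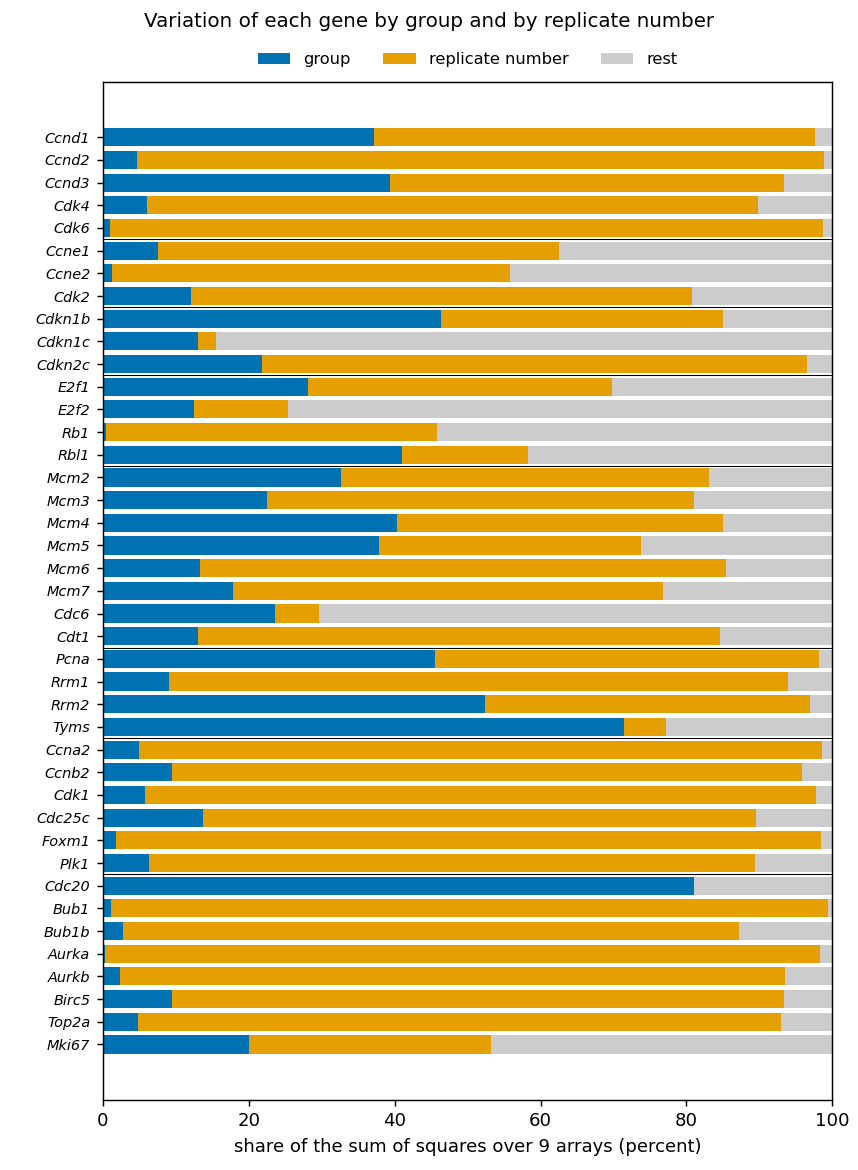
Share of the sum of squares over the 9 arrays (x axis, percent) that went with group (blue), replicate number (orange) and neither (grey) for each measured member (y axis, by role). Number fills most of the bar for G2 and mitosis genes such as Bub1 (98.2%), whereas group does so for Tyms (71.4%) and Cdc20 (81.0%).

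Other measures moved with the number as well. Control probe sets for 18S ribosomal RNA had a mean of 8.06, 7.59 and 8.67 on arrays 3 of PPARgCDE, PPARg2 and AdEmpty cells, and between 10.51 and 12.44 on the other 6 arrays. The mean of the 10 fibroblast markers was 12.16, 12.09 and 12.23 there, against a range of 12.67 to 12.82 elsewhere. The 3′ minus 5′ signal of the Gapdh controls lay between -0.13 and -0.0024 and that of the beta-actin controls between 0.20 and 0.26 on all arrays. The part of these in the members' levels was not tested.

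Without the replicate block, other cell cycle genes gave no calls either, apart from 2 p53 targets described last. Of 38 other origin and fork genes measured, 0 were called in any comparison, with medians of -0.08 in PPARg2 against AdEmpty, -0.01 in PPARgCDE against AdEmpty and 0.07 in PPARgCDE against PPARg2 cells. The most negative in both receptor groups was Gmnn, the licensing inhibitor geminin, at -0.44 in PPARg2 cells (adjusted p = 0.536) and -0.32 in PPARgCDE cells. Pole2, a subunit of polymerase epsilon, had the lowest adjusted p of the list in PPARg2 cells (-0.38, adjusted p = 0.245) with groups that did not overlap. The most positive was Tk1, thymidine kinase, at 0.28 and 0.18. Between the receptors the most positive was Pola1 (0.32), the catalytic subunit of polymerase alpha, and the most negative Cdc45 (-0.13), a subunit of the active helicase. Of 40 other mitosis genes 0 were called, with medians of -0.09, -0.09 and 0.02 in the same order. Cdc25a, the phosphatase that activates Cdk2 and Cdk1, was at 9.25, 9.51 and 9.61 in PPARgCDE cells and at 9.50, 9.50 and 9.84 in PPARg2 cells, against 8.83, 8.86 and 9.29 in AdEmpty cells. All PPARg2 arrays were above all AdEmpty arrays, by 0.62 on average (SE 0.17, adjusted p = 0.242), and the difference in PPARgCDE cells was 0.46 (SE 0.17, adjusted p = 1.0). The most negative were Racgap1 (-0.41) in PPARg2 cells and Prc1 (-0.30) in PPARgCDE cells, both of the central spindle, while Racgap1 was the most positive between the receptors (0.36) and Cdc25a the most negative (-0.16). Racgap1 leaned on 1 array, since without PPARg2 array 2 it was at -0.12 in PPARg2 cells and at 0.06 between the receptors. In PPARgCDE cells Prc1 ran from -0.54 to -0.08 with 1 array left out of the fit without the block. Its differences within numbers 1, 2 and 3 were -0.184, -0.449 and -0.278.

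Of 9 other E2F, DP and pocket protein genes 0 were called, with Rbl2, the p130 gene, at -0.43 in PPARg2 cells (adjusted p = 0.701), -0.30 in PPARgCDE cells and 0.13 between the receptors. E2f6, a repressive E2F, was at 0.23 and 0.17 in the comparisons with AdEmpty, and E2f8 at -0.13 between the receptors. Of 4 other kinase inhibitor genes 0 were called. Cdkn1a, the gene of p21 and a p53 target, was at 9.58, 10.74 and 10.89 in PPARgCDE cells and at 9.79, 10.96 and 11.16 in PPARg2 cells, against 9.51, 10.61 and 10.87 in AdEmpty cells. Array 1 was more than 1 log2 unit below the others in every group, and the differences from AdEmpty were 0.31 in PPARg2 cells and 0.08 in PPARgCDE cells (SE 0.48 each, adjusted p = 1.0). Cdkn2d, the p19 gene, was at -0.35 and -0.36 in the same comparisons, and Cdkn2a at -0.34 between the receptors.

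Among 14 p53 target genes 2 were called higher in PPARg2 against AdEmpty cells and 0 lower, where 0.654% of all genes were called in either direction, and the list's median was 0.21, against 0.00 over all genes. The list was chosen with earlier results of these data known, so this count and median are descriptions without a test. Btg2, which encodes an antiproliferative protein, was at 10.21, 10.32 and 9.11 in PPARgCDE cells and at 11.22, 11.04 and 10.09 in PPARg2 cells, against 8.15, 8.47 and 7.94 in AdEmpty cells. All receptor arrays were above all AdEmpty arrays. Btg2 rose by 2.60 in PPARg2 cells (SE 0.37, adjusted p = 0.0136). Its difference in PPARgCDE cells was 1.69 (SE 0.37, adjusted p = 0.261), which was called with the replicate block (adjusted p = 0.02). Plk3, a stress-responsive polo-like kinase, was at 7.64, 8.01 and 7.93 in PPARgCDE cells and at 8.45, 8.40 and 8.68 in PPARg2 cells, against 7.20, 7.12 and 7.58 in AdEmpty cells. The 3 groups did not overlap, and Plk3 rose by 1.21 in PPARg2 cells (SE 0.16, adjusted p = 0.0096). Its difference was 0.56 in PPARgCDE cells (SE 0.16, adjusted p = 0.644), and -0.65 in PPARgCDE against PPARg2 cells (SE 0.16, adjusted p = 1.0), so that the calls in PPARg2 cells do not show a difference between the receptors. With the replicate block both were called in PPARg2 cells (adjusted p = 0.00246 for Btg2 and 0.00506 for Plk3). Without the block, both calls were lost when certain single arrays were left out. The difference then stayed between 2.38 and 2.94 for Btg2 and between 1.12 and 1.35 for Plk3. Btg2 was not called without PPARg2 array 1 (adjusted p = 0.0615) or 2 (0.0794) or without AdEmpty array 1 (0.0664), 2 (0.0504) or 3 (0.0583), and Plk3 was not called without AdEmpty array 1 (0.0501) or 2 (0.054). Plk2, another such kinase, was at 8.96, 9.52 and 9.57 in PPARgCDE cells and at 8.74, 9.25 and 9.17 in PPARg2 cells, against 9.63, 10.37 and 10.15 in AdEmpty cells. Its difference was -0.998 in PPARg2 cells (SE 0.24, adjusted p = 0.15) and -0.70 in PPARgCDE cells (SE 0.24, adjusted p = 0.909), the second called with the block (adjusted p = 0.0239). Btg2 and Plk2 were also the most negative and the most positive of the list between the receptors, at -0.90 and 0.30, and neither was called. Phlda3, a p53-induced gene, was at 0.63 in PPARg2 cells (SE 0.22, adjusted p = 0.51). Several of these genes also answer to signals other than p53.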

How the data were processed

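RNA of the 9 samples was primed with oligo(dT), labelled with biotin and hybridised to Affymetrix arrays, per the labels' protocols. The deposited table gave each probe set a log2 value on each array. The submitters' processing notes name RMA, affy and R 2.5.0. No source used here states the log base, which was read from the values, whose antilogs to base 2 were whole multiples of 0.01, to within 0.0001, in at least 99.858% of cases. The number of arrays limits the precision.

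Of 45101 probe sets, 34945 carried 1 gene symbol, 932 carried several, 9160 carried none and 64 were controls. Those with 1 symbol gave 18193 genes, each read by its probe set with the highest mean. Values were used as deposited. All columns belonged to the 9 samples. limma 3.58.1 in R 4.3.3 (lmFit and eBayes, two-sided) was fitted over all genes with 3 group means and no block, with 6 residual and 3.374 prior degrees of freedom. The code was tested on simulated data. Other steps used pandas 2.3.3, numpy 2.4.6 and matplotlib 3.10.9 under Python 3.11.15.

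The members, the lists of other cell cycle, p53 and marker genes and the rule for naming genes were chosen with earlier results of these data known. Named with all arrays were the 3 most positive and 3 most negative members of each comparison, any called member, and Ccnd1, Ccne1, Cdk1, Cdkn1b, Mcm2, Pcna, Top2a and Mki67 as 1 gene for each role. Of each other list, called genes and the most positive and most negative gene were named. Foxm1, Bub1, Aurka, Cdk6 and Pole2 were chosen after their values were seen. Of the lists, Chaf1a, Bax, Plin1 and Cfd were not analysed here, and some other genes are not reported here.

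Titles share replicate numbers. To see whether these pair the arrays, each array's deviations from its group mean were correlated over genes with those of the array of equal number. The rule for pairs was that all 3 correlations exceeded 0.1. The 3 correlations were 0.57, 0.52 and 0.708 between PPARgCDE and AdEmpty cells, which met the rule. Between PPARgCDE and PPARg2 cells they were 0.297, 0.507 and 0.531, which also met it. They were -0.121, 0.631 and 0.255 between PPARg2 and AdEmpty cells, which did not. The main fit had no block in any comparison, so its SE, intervals and adjusted p ignored the pairs. For Ccnd1 the SE was 0.242 without the block and 0.083 with it. Alternatives were the replicate block, other scalings, averaging all probe sets of a gene, brighter genes, an intensity trend, fewer arrays and each array left out.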

Additional observations from a re-analysis of the deposited data

How the results depend on the processing

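The 18 alternatives left 0 members called in 52 of 54 cases, and the median member difference moved by less than the spread between arrays in all 54. That spread was wider than the medians themselves, whose sign changed with 1 array left out. They then ran from -0.17 to 0.023 in PPARg2 against AdEmpty, from -0.15 to 0.034 in PPARgCDE against AdEmpty and from -0.086 to 0.111 in PPARgCDE against PPARg2 cells. Leaving 1 array out could keep a replicate number in only 1 of the groups compared. The sign change thus does not show how stable the medians were. Both cases with members called were in PPARg2 against AdEmpty cells, and both were fits with the replicate block. The other alternatives kept the fit without the block, many with fewer arrays. Their 0 calls therefore cannot speak for a fit with the block. These groups missed the rule for pairs, since their arrays 1 correlated at -0.121, while arrays 2 did so at 0.631 and arrays 3 at 0.255. Each of them met the rule with PPARgCDE, so the miss does not settle whether the numbers pair these arrays. The replicate block called 2 members there, Rrm2 (0.71, adjusted p = 0.0142) higher and Ccnd1 (-0.51, adjusted p = 0.0258) lower, and 661 genes (3.63%). With the block and arrays numbered 1 and 2 only, chosen after seeing the data, 1 member was called, Rrm2, and 361 genes. Not every array there correlated best with its own number, since PPARg2 array 1 did so with AdEmpty array 2 (0.24). Of the other genes named, this block also called Cdc25a (adjusted p = 0.0175) and Phlda3 (0.0218) higher and Gmnn (0.043) and Plk2 (0.00309) lower. In the 2 comparisons that met the rule, the block changed no call among the genes named but those of Btg2 and Plk2 given above. Genes called in PPARg2 against AdEmpty cells, 119 as reported, were 187 among brighter genes only and 67 with the compared arrays only, and 57 to 114 with 1 array left out. In PPARgCDE against AdEmpty cells, 31 as reported, they were 166 with the block, 20 with the compared arrays only, 55 with arrays numbered 1 and 2 only, 96 with both choices and 17 to 34 with 1 array left out. Between the receptors they were 0 to 1 with 1 array left out.

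Single uncalled genes, members and other cell cycle genes, changed sign. With the mean of probe sets, Ccne1 (-0.032) and Top2a (0.139) did so in PPARg2 cells, Top2a (0.044) in PPARgCDE cells and Cdkn1b (-0.006) between the receptors. With arrays numbered 1 and 2 only, with or without the block, Ccne1 was at -0.005 in PPARgCDE cells, and between the receptors Cdkn1c was at 0.107, Ccne1 at -0.068 and Cdk1 at 0.012. Between the receptors Cdk1 was at 0.014 after median subtraction and, after quantile normalization, Cdk1 was at 0.009 and Ccne1 at -0.011. With 1 array left out, differences from AdEmpty in PPARg2 cells ran from -0.214 to 0.058 for Cdk1, from -0.17 to 0.083 for Top2a, from -0.097 to 0.734 for Cdkn1a and from -0.082 to 0.622 for Ccnd2. In PPARgCDE cells they ran from -0.163 to 0.48 for Ccnd2, -0.214 to 0.025 for Cdk1, -0.24 to 0.034 for Top2a, -0.331 to 0.49 for Cdkn1a, -0.035 to 0.101 for Ccne1, -0.048 to 0.425 for Tk1 and -0.156 to 0.011 for Mcm2. Between the receptors they ran from -0.166 to 0.123 for Cdk1, -0.208 to 0.067 for Top2a, -0.45 to 0.216 for E2f8, -0.055 to 0.335 for Ccnd1, -0.086 to 0.05 for Ccne1, -0.1 to 0.1 for Mki67 and -0.303 to 0.057 for Cdkn1c. The fits with 1 array left out had no block, so a replicate number could stay in only 1 of the groups compared. Within numbers 1, 2 and 3 of all arrays, PPARg2 minus AdEmpty was 0.289, 0.351 and 0.297 for Cdkn1a and 0.179, 0.393 and 0.188 for Ccnd2. For Cdk1 it was -0.045, -0.197 and -0.051. Top2a had both signs, with -0.156 in number 2 and 0.063 in number 3. The causes were not tested.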
